A study of Schmidtea mediterranea with 24 samples.

Results

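The outer rim of planarian tissue was compared with its interior in sections taken 6 h after amputation. The sections were profiled with Slide-seqV2, a method that captures polyadenylated RNA on densely packed beads, each with its own barcode and a known position, so that a bead reports a small region and not a single cell. A bead was taken as tissue if it held 50 or more unique molecular identifiers (UMIs, single captured molecules) and the mean over its 20 nearest bead positions was 100 or more UMIs. Each tissue bead was then ranked by its tissue share, the percentage of bead positions within 150 position units that were themselves tissue beads. The lowest-ranked of 3 equal groups in a section was called the rim, the next the middle and the highest-ranked the interior. This choice used the total UMIs of beads and their positions, and no single gene was picked out for it. The totals include every gene, so abundant transcripts add to them. It gave 8148 rim and 8146 interior beads at 6 h, of 24439 tissue beads and 57140 beads in those sections and 113310 beads in all 4 sections of the series.

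The animals were wild-type *Schmidtea mediterranea*, a freshwater flatworm, of 6 to 8 mm. For each time point, 8 to 9 tail fragments were frozen around 1 intact animal in a single block, and 2 adjacent sections were cut. Rim and interior beads can therefore both mix cut fragments with an uncut animal, and the labels do not say which piece of tissue is which. The sections of 1 block share their animals and are not biological replicates, so no p-value was computed between rim and interior, and a gene was counted as past the fold only if it differed at least 2-fold the same way in both sections. The comparison sets were 2 sections of a separate block frozen 48 h after amputation, and RNA-seq libraries of mmp-1+ and mmp-1- cells from tail fragments at 6 h and from intact worms. The sorted cells were wild type, came from worms starved for 11 days, and were sorted after hybridization with a probe for mmp-1, a matrix metalloproteinase gene. Each sorted group had 3 libraries of 1000 cells from 100 worms each.

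A planarian has no body cavity. A single-layered epidermis covers the animal, body wall muscle lies beneath it, and the space inside is filled with gut branches, nerves, glands and a parenchyma that holds the stem cells known as neoblasts. Neoblasts are the dividing cells from which the other cell types are renewed, including the epidermis, whose precursors move outward as they mature. The files identify genes by SMED30 identifiers without names, so genes are given by identifier, no function is assigned to them, and no list of epidermal, muscle, gut or neoblast markers could be applied to the rim or the interior.

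**Figure D1:**
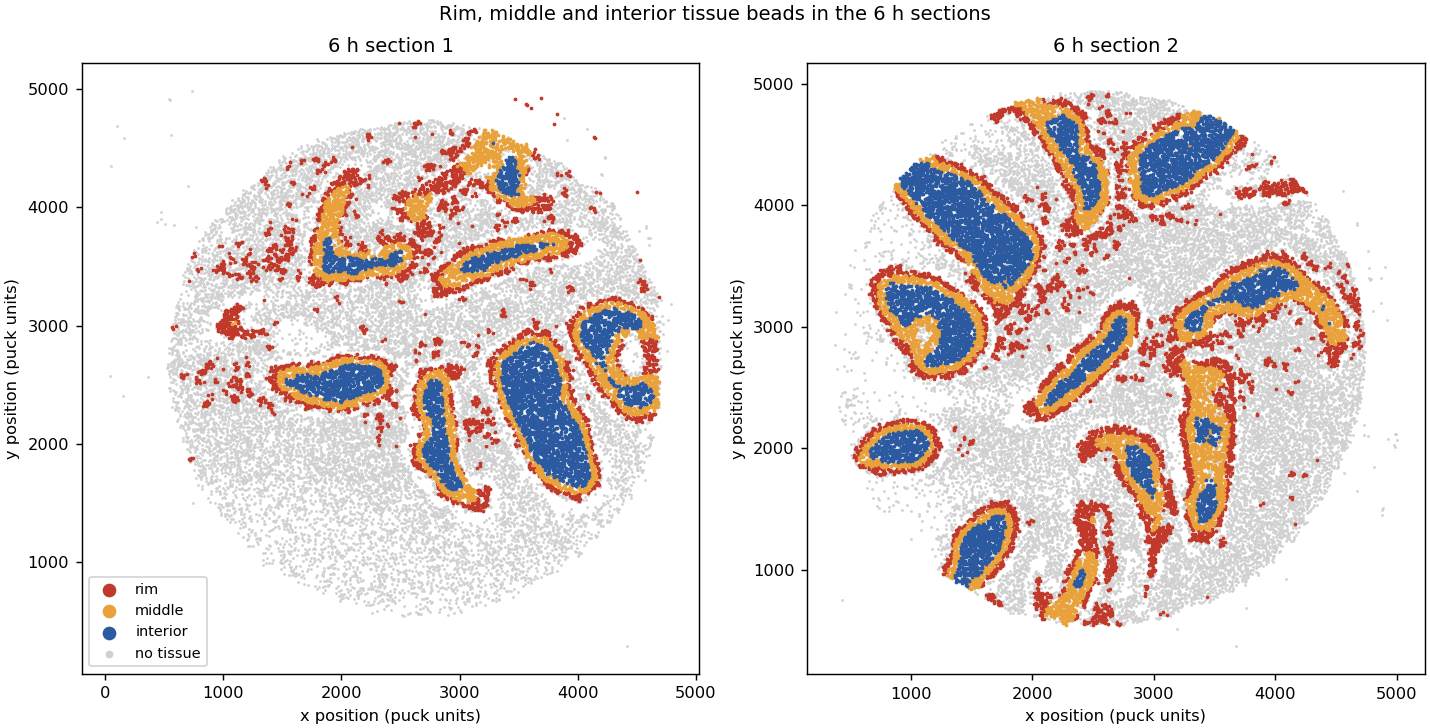
Positions of all beads in the 6 h sections, with x and y in the position units of the deposited tables (no unit of length is stated). Red marks rim, orange middle and blue interior tissue beads, and grey marks beads without tissue. The rim outlines the 7 pieces of section 1 and the 10 pieces of section 2 and also takes in thin or scattered tissue between them.

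Tissue lay in 7 pieces of 200 or more linked beads in section 1 and in 10 in section 2. Rim beads had a tissue share of up to 31.4% in section 1 and 34.7% in section 2, and interior beads one of at least 43.6% and 46.9%. All interior beads of both sections lay in these pieces, but 31.8% of rim beads in section 1 and 19.9% in section 2 lay in smaller or scattered tissue. Rim and interior also drew unequally on the pieces. The largest piece held 9.31% of rim and 42.8% of interior beads in section 1, and 21.9% and 11.9% in section 2. The contrast of rim and interior is therefore partly one between pieces. Rim beads were shallower, with a median of 370 and 369 UMIs in sections 1 and 2, against 1018.5 and 681.5 UMIs in the interior. Beads without tissue had a median of 40 and 43 UMIs. In total 2023295 and 2986015 UMIs were summed over rim beads, and 4016819 and 4874532 over interior beads. Levels are given as CPM, counts per 1000000 of these sums, and intervals are exact 95% intervals that cover counting error only. A lower CPM cannot tell fewer cells of a type from less RNA per cell. Libraries shared 3 to 5 bead barcodes, among 24821 to 32319 beads each.

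Far more genes were higher in the rim than lower in it. Of 6991 genes with 200 or more UMIs over the tissue of both 6 h sections, 285 were at least 2-fold higher in the rim in both sections (4.08%) and 12 were at least 2-fold lower in both (0.172%). Among the higher genes, 62 were at least 4-fold and 18 at least 8-fold higher in both sections, and their median log2 ratio of rim over interior was 1.72. No gene was past 2-fold in opposite directions in the sections. Across genes the log2 ratios of the adjacent sections had a Pearson r of 0.70 and a Spearman rho of 0.54, as a description, since both sections share animals and block. The counts depend on how the rim was drawn. With a radius of 250 units, 159 genes were higher and 4 lower, and when beads were ranked instead by distance to the nearest position without tissue, no gene was past 2-fold in both sections. That distance hardly differed between the groups drawn by tissue share, with a median of 13.4 and 13.3 units in the rim, against 13.7 and 13.5 units in the interior. The median spacing of bead positions was 12.7 and 12.4 units, and the highest tissue share was 56.5% and 60.5%. Interior beads thus also lay close to positions without tissue, so ranking by this distance hardly separates edge from centre. Rim and interior are groups by local density of tissue beads. The median gene had a log2 ratio of 0.16 in section 1 and 0.13 in section 2. With ratios set relative to that median, 231 of the 285 genes remained higher, and the lower list grew from 12 to 22 genes with all 12 among them.

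**Figure D2:**
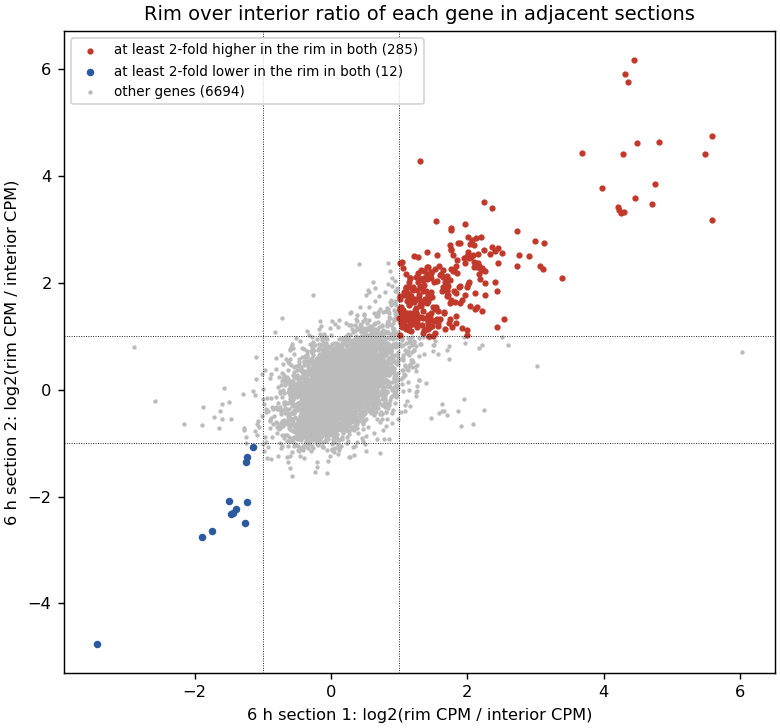
Each point is 1 of 6991 genes, with its log2 ratio of rim over interior CPM in 6 h section 1 on the x axis and in section 2 on the y axis; dotted lines mark 2-fold. The 285 genes higher in the rim in both sections (red) reach ratios above 4 on both axes, and the 12 lower genes (blue) lie mostly between -1 and -3.

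The 285 genes together made up a small part of the RNA. They held 3.46% of rim UMIs in section 1 and 3.20% in section 2, against 0.78% and 0.66% of interior UMIs, with 1.55% and 1.44% in the middle. For 278 of the 285 the middle level lay between the rim and interior levels in both sections, an order met by 1334 of all 6991 genes in that direction. When the tissue was divided into 6 equal groups by tissue share, the list held 3.67%, 3.34%, 1.95%, 1.2%, 0.87% and 0.69% of UMIs from the outermost to the innermost group of section 1. The matching values in section 2 were 3.65%, 2.92%, 1.83%, 1.06%, 0.90% and 0.44%. In both sections the largest step was between the second and the third group. These genes were chosen by the same contrast, so the course describes them and tests nothing.

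Most of the leading rim transcripts were found outside tissue too. Of the 285 genes, 195 were at least 2-fold higher in beads without tissue than in the interior in both sections, as were 251 of all 6991 genes. The 285 were chosen for a low interior level relative to the rim, so a high ratio to that same interior level partly follows from the choice. Of the 285, 15 had a higher level outside tissue than in the rim in both sections. The part of RNA outside tissue in the rim levels was not tested.

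Among rim genes of 1000 or more UMIs, SMED30005324 had the largest ratio by the smaller of its section ratios, while SMED30029767 had a larger one in section 1, at log2 4.46. The level of SMED30005324 was 2118 and 996 CPM in the rim of sections 1 and 2, against 103 and 18.3 CPM in the interior, with 952 and 515 CPM in the middle. The rim level was 20.5-fold higher in section 1 (log2 4.36, interval 4.21 to 4.51) and 54.5-fold higher in section 2 (log2 5.77, interval 5.47 to 6.09). Outside tissue it was low, at 74.2 and 60.0 CPM. Its signal was patchy: 94.1% and 96.0% of its tissue UMIs lay in the 1% of tissue beads richest in it, and only 3.41% and 3.29% of rim beads held any. In interior beads, 1.47% and 0.90% held any, although those beads were deeper. By the likeness of levels over 470 square windows of tissue, the genes closest to SMED30005324 were SMED30009457 (Pearson r 0.53), SMED30005154 (0.43) and SMED30028798 (0.43), over windows that share animals and differ in depth. Of these, only SMED30009457 was itself past 2-fold in both sections.

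The most abundant rim transcripts were SMED30007522 and SMED30030540. SMED30007522 had 5176 and 3587 CPM in the rim of sections 1 and 2, against 276 and 346 CPM in the interior. SMED30030540 had 4854 and 3017 CPM in the rim, against 255 and 303 CPM in the interior. Both were thus between 9.97-fold and 19.1-fold higher in the rim of a section. Their levels followed each other closely over windows, with a Pearson r of 0.92. Both were also high outside tissue, where SMED30007522 had 2891 and 2606 CPM. To compare shares of beads at equal depth, beads were thinned to 200 UMIs, which left 2173 and 3429 rim and 2807 and 4158 interior beads. SMED30007522 was then found in 25.7% and 19.3% of rim beads, against 4.55% and 5.02% of interior beads (37.5% and 26.6%, against 17.9% and 13.4%, without thinning).

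SMED30011012, SMED30008073 and SMED30029767 formed a second set that rose and fell together over windows, with pairwise r between 0.80 and 0.83. SMED30011012, the most abundant of the 3, had 1073 and 943 CPM in the rim, against 57.8 and 87.6 CPM in the interior. SMED30008073 had 349 and 293 CPM in the rim, against 17.7 and 29.1 CPM in the interior. SMED30029767 had 219 and 160 CPM in the rim, against 9.96 and 13.3 CPM in the interior. All 3 were also high outside tissue. SMED30011012 had 805 and 842 CPM there, SMED30008073 had 274 and 230 CPM, and SMED30029767 had 191 and 163 CPM. Among tissue beads of section 1, this set was limited more tightly to the outer groups than the abundant pair. SMED30011012 had 1354 and 905 CPM in the outermost and second of 6 groups and 171 CPM in the third, where SMED30007522 still had 2556 CPM, against 4518 and 5577 CPM in its own outer groups. In section 2 the third group still held 469 CPM of SMED30011012, against 967 CPM in the outermost. The summed level of this set had an r of 0.48 with that of the abundant pair.

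SMED30014019, SMED30024979, SMED30008169 and SMED30026612 made a further set with smaller ratios. Their log2 ratios lay between 2.02 and 2.84, and their pairwise r over windows between 0.46 and 0.64. SMED30026612 had 160 and 215 CPM in the rim, against 39.3 and 39 CPM in the interior. SMED30008169 had 105 and 117 CPM in the rim, against 25.4 and 20.9 CPM in the interior. The summed level of this set was nearly unrelated to that of SMED30011012, SMED30008073 and SMED30029767, with an r of 0.11. Among the other 51 rim genes of 1000 or more UMIs, 46 had their highest r with this set, 41 of them with an r of 0.3 or more. The sets were put together after the correlations were seen.

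Of the remaining named rim genes, SMED30002697 and SMED30015528 had a pairwise r of at most 0.34 with SMED30005324, with each other and with every gene of these sets. SMED30002697 had 81.6 and 148 CPM in the rim, against 15.9 and 14.0 CPM in the interior. SMED30021196, an abundant rim gene, had 1481 and 1509 CPM in the rim, against 614 and 330 CPM in the interior, and its level outside tissue was 1509 and 1164 CPM. SMED30015528 had 102 and 127 CPM in the rim, against 9.71 and 30.0 CPM in the interior, but 166 CPM in the middle of section 1. Its level outside tissue was 210 and 94.8 CPM. At least 93.0% of its tissue UMIs lay in the richest 1% of beads, and 1 piece supplied 53.9% of its rim UMIs in section 1 and 83.2% in section 2.

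**Figure D3:**
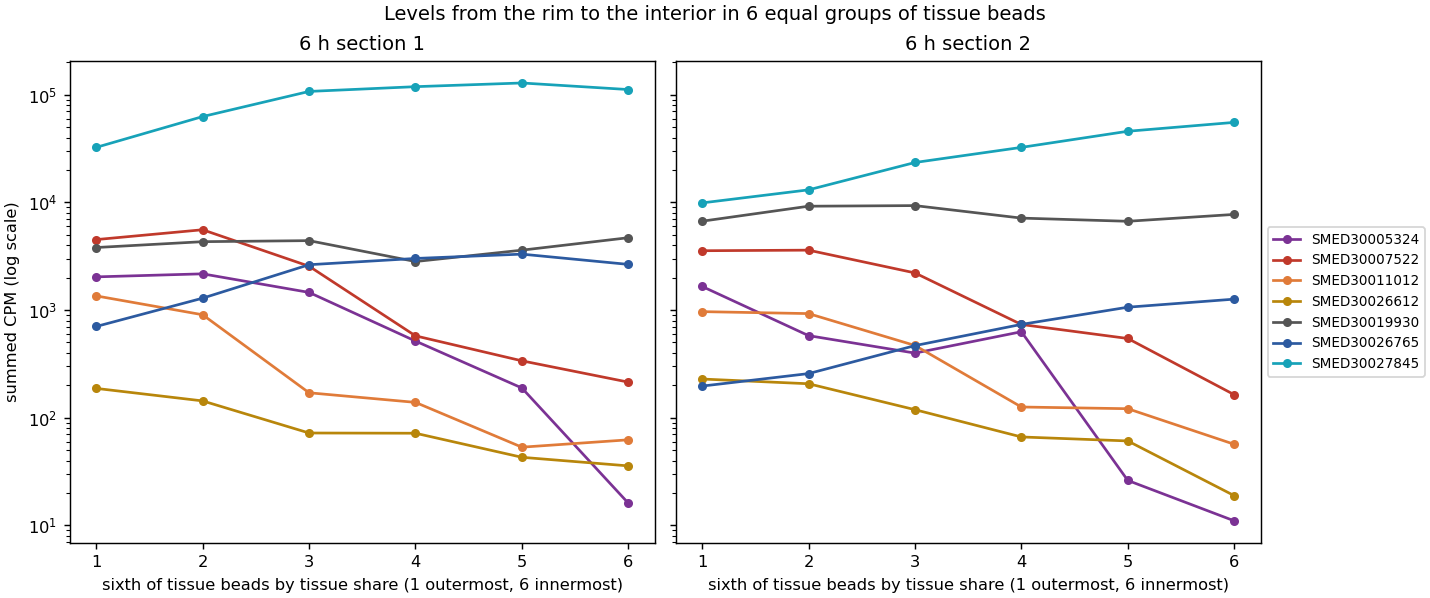
Summed CPM (log scale) of 7 named genes in 6 equal groups of tissue beads ordered by tissue share, from the outermost (1) to the innermost (6), in each 6 h section. SMED30007522 and SMED30011012 fall inward, SMED30027845 and SMED30026765 rise inward, and SMED30019930 is nearly level.

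Just inside the threshold, SMED30004590 had log2 ratios of 1.07 and 1.40 and SMED30024104 of 1.99 and 1.03. Just outside it, SMED30008655 had 0.99 and 1.35 and SMED30030446 had 1.96 and 0.99. On the other side, SMED30020296, at -0.94 and -1.28, and SMED30014561, at -0.92 and -1.08, narrowly missed being counted as lower.

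The genes lower in the rim were few and included a very abundant transcript. SMED30027845 had 51535 and 11859 CPM in the rim of sections 1 and 2, against 120433 and 50844 CPM in the interior. Its log2 ratio was -1.22 in section 1 and -2.10 in section 2, and its level was higher in section 1 than in section 2 in rim and interior alike. Across the 6 groups of section 2 it rose inward without a break, through 9902, 13092, 23504, 32477, 45843 and 55437 CPM. In section 1 it was highest in the fifth group, at 128786 CPM, against 111901 CPM in the innermost.

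SMED30027385, SMED30026765, SMED30025073, SMED30002912, SMED30023781 and SMED30029838 followed SMED30027845, with pairwise r over windows between 0.64 and 0.97 among the 7 genes. SMED30027385 had 5076 and 1116 CPM in the rim, against 13382 and 5230 CPM in the interior. SMED30026765 had 1077 and 234 CPM in the rim, against 2987 and 1168 CPM in the interior. SMED30029838, the one with the strongest decrease, had 36.1 and 10.0 CPM in the rim, against 121 and 62.6 CPM in the interior. All 7 had larger decreases in section 2 than in section 1. The 12 lower genes together held 5.91% and 1.36% of rim UMIs, against 14.1% and 5.90% of interior UMIs, most of it SMED30027845.

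The other 5 lower genes had fewer than 1000 UMIs. The 1 gene at least 8-fold lower in both sections, SMED30000022, singled out after its values were seen, had 6 and 3 rim UMIs, against 129 and 132 interior UMIs. For the 3 rim UMIs of section 2 the log2 ratio was -4.75, with a counting interval of -7.05 to -3.17. Its UMIs were concentrated, with 125 in the fifth of 6 groups of section 1, against 4 in the innermost. In section 2, 127 lay in the innermost group, against 5 in the fifth. With rim and interior drawn inside single pieces, a ratio could be given in only 1 piece. At 48 h its log2 ratios were -0.30 and -1.25.

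Within single pieces the direction was the same for most named genes. Rim and interior were set again inside each of the 17 pieces, which come from adjacent sections of 1 block and are not independent. Pieces were not matched between the sections. No ratio was given where both sums of a piece were 3 UMIs or fewer. SMED30024979 was higher in the rim of 17 of 17 pieces and SMED30002697 in 16 of 16. SMED30007522, SMED30030540, SMED30011012 and SMED30008073 were higher in 16 of 17, SMED30029767 in 15 of 16 and SMED30005324 in 14 of 15. SMED30015528 had enough UMIs in only 7 pieces and was higher in the rim of 5. SMED30021196 was higher in 14 of 17. SMED30027845 was lower in the rim of 17 of 17 pieces, although its log2 ratio reached only -0.01 in one of them. SMED30002912 was lower in 16 of 17, and SMED30026765, SMED30025073 and SMED30027385 in 15 of 17. SMED30029838 was lower in 15 of 16 and SMED30023781 in 13 of 16. Over all genes, 180 were past 2-fold higher with this division, 170 of them among the 285, and all 285 kept their direction in both sections. Of the 12 lower genes none remained past 2-fold, while all 12 kept their direction. Both lists were chosen from the same tissue, so the kept directions describe them and test nothing.

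**Figure D4:**
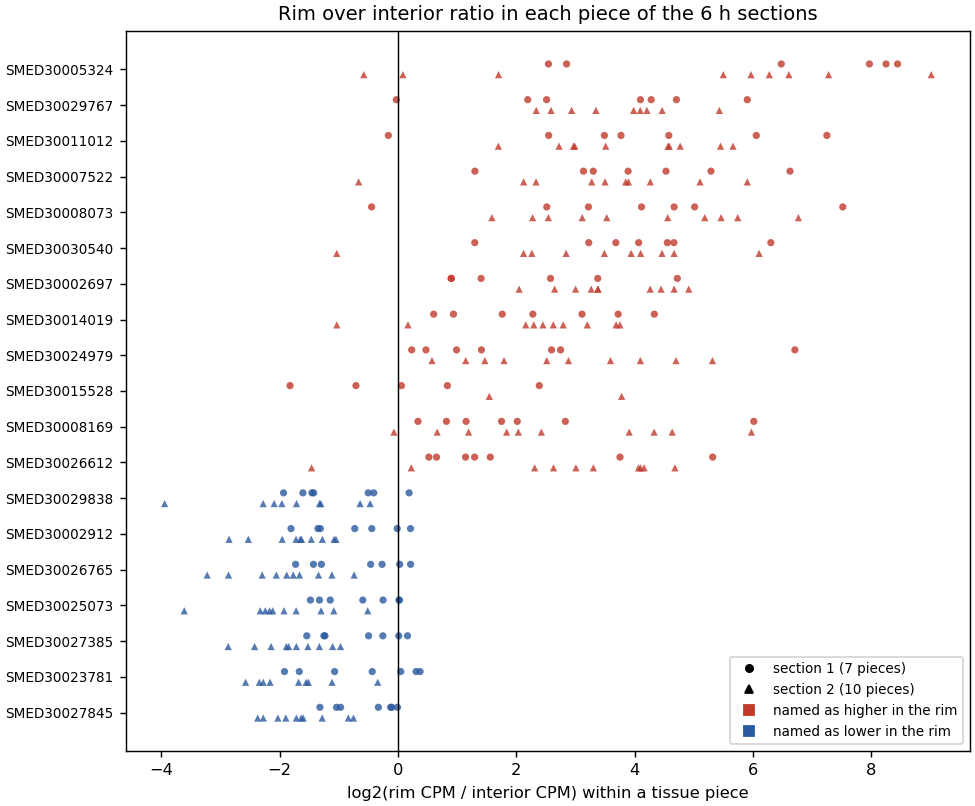
Log2 ratio of rim over interior CPM inside each of the 17 tissue pieces, for the 12 genes named as higher in the rim (red) and the 7 named as lower (blue); circles are pieces of 6 h section 1 and triangles of section 2. A sum of 0 was set to 3 UMIs, and pieces with 3 or fewer UMIs on both sides are not shown. Most red points lie right of 0, and many blue circles of section 1 lie closer to 0 than the blue triangles of section 2.

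The size of the difference varied widely between pieces. SMED30005324 had 4569 CPM in the rim of the largest piece of section 1, against 13.1 CPM in its interior, but a single rim UMI in the fifth-largest piece, against 3 interior UMIs. In section 2 its rim level ranged from no UMI in 2 pieces to 2592 CPM. SMED30011012 was lower in the rim only in that same piece of section 1, with 251 CPM there, against 282 CPM in its interior. SMED30007522 was lower in the rim only in the seventh-largest piece of section 2, with 1173 CPM, against 1860 CPM in its interior.

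The same division was applied to the 48 h sections, which come from other animals. There, 360 genes were at least 2-fold higher in the rim in both sections (5.15%) and 93 were at least 2-fold lower (1.33%). The higher lists shared 245 genes, which is 86.0% of the 6 h list and 68.1% of the 48 h list. Of the 285 genes, 281 were higher in the rim in both 48 h sections, with a median log2 ratio of 1.88 there. The share of all genes considered that were higher in both 48 h sections was not counted. The 285 genes held 4.98% and 5.40% of rim UMIs at 48 h, against 1.05% and 1.41% of interior UMIs. The 18 genes at least 8-fold higher in both 6 h sections were all past 2-fold in both 48 h sections. SMED30005324 had 1450 and 388 CPM in the rim at 48 h, against 13.1 and 36.5 CPM in the interior. SMED30007522 had 5262 and 4617 CPM in the rim at 48 h, against 760 and 1027 CPM in the interior, so its log2 ratios of 2.79 and 2.17 were below the 4.23 and 3.37 of the 6 h sections.

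Of the 12 genes lower in the rim at 6 h, 3 were past 2-fold lower at 48 h, which is 25% of the 6 h list and 3.23% of the 48 h list. Of the 12, 6 had the same direction in both 48 h sections, and the matching share of all genes was not counted. The overlap moved with the settings, to 9 of 22 genes with ratios set relative to the median gene and 36 of 69 at a 1.5-fold limit. The 3 shared genes were SMED30008318, SMED30015925 and SMED30028552, all under 1000 UMIs. SMED30027845 had 17843 CPM in the rim of the first 48 h section, against 36474 CPM in its interior, but 9621 CPM in the rim of the second, against 9576 CPM in its interior. The 7 named interior genes were lower in the rim of the first 48 h section, and 6 of them were not lower in the second, with SMED30023781 the exception at a log2 ratio of -0.27. No difference between 6 h and 48 h was tested, because each time point is 1 block.

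**Figure D5:**
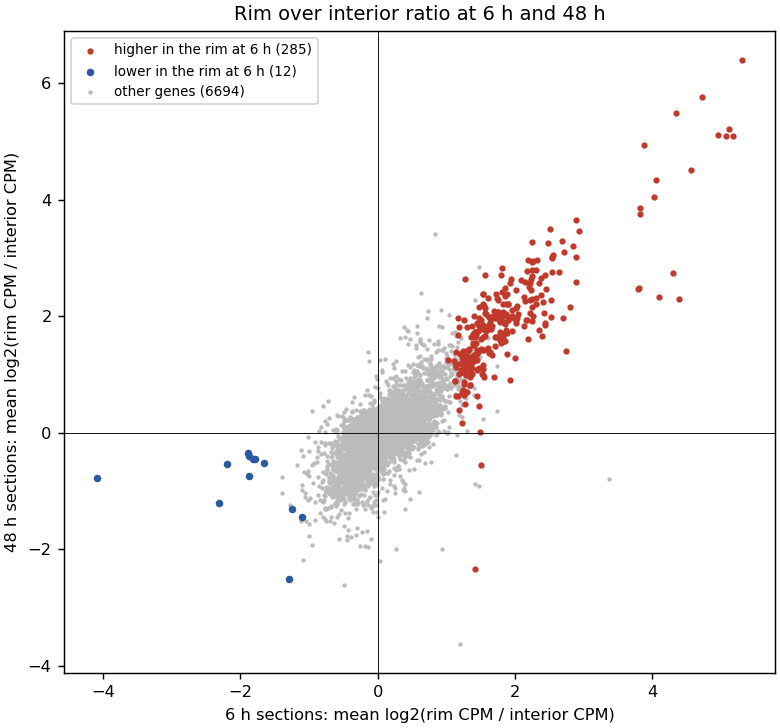
Mean log2 ratio of rim over interior CPM of each of the 6991 genes in the 6 h sections (x axis) and in the 48 h sections (y axis). The 285 genes higher in the rim at 6 h (red) lie mostly above 0 at 48 h as well, while the 12 lower genes (blue) spread toward 0.

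The transcripts SMED30019357 and SMED30019930, which were higher in sorted mmp-1+ cells, and SMED30030799 were taken up with earlier results of these data known. None was past 2-fold between rim and interior at 6 h. SMED30019930 had 4126 and 8249 CPM in the rim, against 4148 and 7235 CPM in the interior. SMED30019357 had 2465 and 3570 CPM in the rim, against 2243 and 3257 CPM in the interior. SMED30030799 had 10094 and 11483 CPM in the rim, against 11340 and 19104 CPM in the interior, so that its log2 ratio of -0.17 in section 1 and of -0.73 in section 2 had the same sign but unequal size.

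The sorted cells gave a readout that the choice of rim and interior genes did not use. mmp-1+ cells of 6 h tails were first compared with mmp-1- cells of 6 h tails. Of the 285 rim genes, 10 were called higher in mmp-1+ cells and 7 lower, with edgeR's quasi-likelihood test at a Benjamini-Hochberg adjusted p under 0.05 over 31435 genes. That is 3.51% higher and 2.46% lower, beside 14.2% and 1.13% of the 6985 section genes that could be tested, and 5.82% and 0.907% of all genes tested. The median log2 difference was -0.17 for the rim genes and 0.03 for the section genes. The number of lower rim genes was unstable: it fell to 1 rim gene without mmp-1+ replicate 1 or without mmp-1- replicate 3, and to 2 or 3 without mmp-1+ replicate 2, mmp-1+ replicate 3 or mmp-1- replicate 1. With libraries scaled by total counts, which moved the median of all genes from -0.08 to -0.46, 5 rim genes were called higher and 235 lower. Among the named rim genes, SMED30011012 averaged 401 CPM in mmp-1+ cells, against 613 CPM in the mmp-1- population, a log2 difference of -0.61 that did not pass the test (SE 0.31, edgeR adjusted p 0.301).

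Of the 12 genes lower in the rim, 5 were called higher in mmp-1+ cells, or 41.7%, beside the 14.2% of section genes, and their median log2 difference was 0.59. Several of the 12 follow each other closely, so they do not count as independent genes. SMED30029838 averaged 563 ± 27.4 CPM in mmp-1+ cells, against 315 ± 43.1 CPM in the mmp-1- population (SD, n = 3 each), a log2 difference of 0.84 (SE 0.16, edgeR adjusted p 0.00164). SMED30027845 averaged 83392 ± 12170 CPM in mmp-1+ cells, against 47132 ± 5996 CPM in the mmp-1- population (SD, n = 3 each), a log2 difference of 0.82 (SE 0.19, edgeR adjusted p 0.00691). In both genes all 3 mmp-1+ libraries were above all 3 mmp-1- libraries, though the share of all tested genes separated in this way was not counted. Both calls held in all 12 alternatives, with adjusted p up to 0.0158 for SMED30029838 and up to 0.0495 for SMED30027845. With total-count scaling their log2 differences were 0.45 and 0.43. SMED30026765, SMED30027385 and SMED30003230 were the others called, the last outside the naming rule. The calls of SMED30026765 and SMED30027385 were lost without either of mmp-1+ replicates 1 and 3 or mmp-1- replicates 1 and 2, with adjusted p between 0.103 and 0.181. With total-count scaling they were lost too, at log2 differences of 0.31 and 0.30 and adjusted p of 0.119 and 0.138. SMED30025073, one of the 7 named interior genes with 22638 tissue UMIs, was almost missing from the counts of sorted cells. It had 0.257 ± 0.115 CPM in mmp-1+ cells, against 0.219 ± 0.0392 CPM in the mmp-1- population (SD, n = 3 each). Sorted cells were counted as reads without multimapping ones, and sections as UMIs, so the levels are not directly comparable. The cause was not tested. SMED30019357 was called higher with a log2 difference of 4.82 (SE 0.54, edgeR adjusted p 4.02e-06), and SMED30019930 with one of 5.48 (SE 1.22, edgeR adjusted p 0.00649).

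Sorted cells of 6 h tails were then set against those of intact worms. In mmp-1+ cells, 29 rim genes were called higher at 6 h and 21 lower, or 10.2% and 7.37%, beside 4.04% and 3.64% of the section genes and 2.58% and 3.94% of all genes tested. In mmp-1- cells, 44 were called higher and 26 lower, or 15.4% and 9.12%, beside 7.43% and 4.61% of the section genes and 4.56% and 4.99% of all genes tested. With total-count scaling mmp-1+ cells gave 19 higher and 39 lower rim genes, and mmp-1- cells 29 and 26, so the balance of directions in mmp-1+ cells depends on the scaling. Fitted on the compared groups alone, mmp-1- cells gave 27 higher and 15 lower. Without mmp-1- replicate 3 of the 6 h group the 44 calls fell to 23, and without replicate 2 of either mmp-1- group the 26 fell to 16. Both comparisons contrast tail tissue with whole animals as well as cut with uncut animals, and these cannot be told apart.

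Among named rim genes, SMED30008169 was called higher at 6 h in both populations. It averaged 80.2 ± 2.33 CPM in mmp-1+ cells of 6 h tails and 56.2 ± 0.497 CPM in those of intact worms (SD, n = 3 each), a log2 difference of 0.51 (SE 0.08, edgeR adjusted p 3.12e-04). In mmp-1- cells it averaged 87.5 ± 6.97 CPM at 6 h and 62.7 ± 2.97 CPM in intact worms (SD, n = 3 each), a log2 difference of 0.48 (SE 0.08, edgeR adjusted p 4.46e-04). SMED30026612 was called higher in mmp-1+ cells alone (log2 0.50, SE 0.12, edgeR adjusted p 0.0122). That call was lost without mmp-1+ replicate 1 or 3 at 6 h or intact mmp-1+ replicate 1, with adjusted p between 0.0529 and 0.0739, and with total-count scaling, at a log2 difference of 0.37 and an adjusted p of 0.0754.

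In mmp-1- cells, members of the second set of rim genes were higher at 6 h. SMED30029767 averaged 137 ± 34.2 CPM at 6 h and 63.8 ± 23.5 CPM in intact worms (SD, n = 3 each), a log2 difference of 1.10 (SE 0.33, edgeR adjusted p 0.0407). SMED30011012 had one of 1.00 (SE 0.31, edgeR adjusted p 0.0488), and SMED30008073, at 0.96 (SE 0.31, edgeR adjusted p 0.0591), missed the threshold. All 3 genes had every 6 h library above every intact one in these cells. The share of all tested genes separated in this way was not counted, so this describes the 3 genes only. The calls of SMED30029767 and SMED30011012 were lost without any one of replicates 2 and 3 of either group, with adjusted p between 0.0965 and 0.165. They were also lost with total-count scaling, at 0.0666 and 0.0821, and that of SMED30011012 with DESeq2, at 0.0573. SMED30015528 averaged 263 ± 117 CPM at 6 h and 35.1 ± 36.0 CPM in intact worms (SD, n = 3 each), with a log2 difference of 2.90 (SE 0.89, edgeR adjusted p 0.0443) that was not called without replicate 1 or 3 of either group, at adjusted p between 0.083 and 0.153.

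A few members with larger changes were singled out after their values were seen. SMED30005835, with rim levels of 23.7 and 28.1 CPM against 10.5 and 8.82 CPM in the interior, averaged 1029 ± 124 CPM in mmp-1+ cells of 6 h tails and 371 ± 15.8 CPM in those of intact worms (SD, n = 3 each; log2 1.47, SE 0.15, edgeR adjusted p 2.73e-06). In mmp-1- cells its log2 difference was 1.40 (SE 0.15, edgeR adjusted p 3.64e-06). SMED30027886, with rim levels of 63.3 and 88.4 CPM against 19.4 and 21.1 CPM in the interior, fell to 10.7 ± 2.10 CPM in mmp-1+ cells of 6 h tails, against 42.1 ± 3.28 CPM in those of intact worms (SD, n = 3 each; log2 -1.98, SE 0.13, edgeR adjusted p 6.52e-09). In mmp-1- cells the log2 difference of SMED30027886 was -1.77 (SE 0.12, edgeR adjusted p 1.67e-08).

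SMED30009662, one of the 18 strongest rim genes, was far lower in sorted cells of 6 h tails. It averaged 1.67 ± 0.356 CPM in mmp-1+ cells of 6 h tails and 37.8 ± 9.24 CPM in those of intact worms (SD, n = 3 each; log2 -4.50, SE 0.53, edgeR adjusted p 1.15e-05). In mmp-1- cells it had 2.43 ± 1.16 CPM at 6 h and 91.4 ± 68.6 CPM in intact worms (SD, n = 3 each; log2 -5.23, SE 0.52, edgeR adjusted p 1.21e-06). SMED30028552, from the interior list, moved the other way. It averaged 9.86 ± 2.07 CPM in mmp-1+ cells of 6 h tails and 0.808 ± 0.261 CPM in those of intact worms (SD, n = 3 each; log2 3.58, SE 0.35, edgeR adjusted p 1.59e-06). In mmp-1- cells the log2 difference of SMED30028552 was 3.77 (SE 0.34, edgeR adjusted p 4.44e-07). The calls of both genes held in all 12 alternatives in each population.

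In the sections these genes were distributed unevenly over pieces. SMED30009662 had 73 and 89 rim UMIs in sections 1 and 2, against 3 and 16 interior UMIs. A single piece held 71.2% of its rim UMIs in section 1 and 77.5% in section 2. In section 1 this was the smallest piece, with 52 UMIs in its own rim, and in section 2 the sixth-largest piece, with 71 UMIs. The rim level of SMED30009662 there was 247 and 316 CPM, against at most 26.8 CPM in the rim of any other piece. SMED30028552 had no UMI in the rim or the interior of either of these pieces, and was found in 6 of the other 6 pieces of section 1 and in 9 of the other 9 of section 2. Its counts per piece were low, at no more than 15 UMIs in any rim and 62 in any interior. The rim UMIs of SMED30009662 thus lay largely in 1 piece of each section. With rim and interior set inside each piece, it was higher in the rim of 5 of the 5 pieces with a ratio at 6 h, and at least 2-fold higher in 3. At 48 h it was higher in 19 of 20.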

How the data were processed

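The sections' values are deposited UMI counts per gene and bead, with bead positions in a separate table; per the labels these come from Slide-seqV2 libraries, and per the submitters' processing notes bcl2fastq 2.20 was used. The smallest listed bead had 10 UMIs. The sorted cells' values are deposited read counts per gene; per the submitters' processing notes STAR 2.7.3a was used in this series, and RSEM is named without a version. Build and annotation were not given in the sources used here. Replicates were not pooled by the authors, as the deposited counts are given separately for each section and each sorted library.

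UMIs were summed over rim, middle and interior beads and scaled to 1000000, with genes of 200 or more tissue UMIs considered. Intervals and the floor of 3 counts cover counting error only. Python 3.11.15 was used with numpy 2.4.6, scipy 1.17.1 and pandas 2.3.3. The 18 sorted libraries of 6 groups were fitted together in edgeR 4.0.16 (R 4.3.3) with TMM scaling and its quasi-likelihood test, with DESeq2 1.42.0 as an alternative. They held 52969393 to 66114382 gene counts each; rows that name no gene, for unmapped (12.1 to 16.1%) and multimapping (5.67 to 9.21%) reads, were left out. Libraries were not stranded, so overlapping and antisense genes cannot be told apart. P-values measure only the spread between these libraries, each of pooled worms. Replicate numbers of sorted groups were not used to pair the libraries in the main fit, as the labels give them no such meaning. Both analyses were tested on simulated data.

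Genes, lists and tests were chosen with earlier results of these data known. The text names the 12 genes of 1000 or more UMIs with the largest smaller ratio in each direction (7 existed for the interior), the 3 most abundant in each direction, and 4 chosen from earlier results; for sorted cells it names up to 4 called genes per comparison and direction. Alternatives changed the radius, the division, the tissue limit, the depth of beads, the scaling, the gene filter and the fold, left out pieces or replicates, and used other fits. The other 2 RNAi libraries of the series were not used here.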

Additional observations from a re-analysis of the deposited data

Results flagged for a closer look

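SMED30019357 went in opposite directions at the time points. Its mean log2 ratio of rim over interior was 0.1341 over the 6 h sections, which were both above 0, and -0.5346 over the 48 h sections, which were both below 0. It had 2465 and 3570 CPM in the rim at 6 h, against 2243 and 3257 CPM in the interior, and 2117 and 2174 CPM in the rim at 48 h, against 2842 and 3399 CPM in the interior. The difference was not tested, because each time point is 1 block of tissue.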

How the results depend on the processing

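The 285 genes higher and 12 lower in the rim were 159 and 4 with a radius of 250 units, 147 and 1 with tissue divided in 2, 180 and 4 within pieces, and 0 and 0 by distance to a position without tissue. Lower genes numbered 20 with the tissue divided in 4, 7 with a tissue limit of 200 UMIs, 29 among beads of 200 to 1000 UMIs, 25 as means over beads, 22 relative to the median gene, and 19 both for beads in pieces only and after subtracting the profile outside tissue. The last 2 were chosen after seeing the data. A minimum of 1000 UMIs gave 60 and 7, one of 50 UMIs gave 693 and 49, a 1.5-fold limit gave 601 and 69, and intervals wholly past 2-fold left 133 higher. Genes shared with 48 h numbered 124 higher with the radius of 250 units, 162 within pieces and 428 at 1.5-fold. Shared lower genes numbered 7 among beads of 200 to 1000 UMIs, 9 relative to the median gene, 36 at 1.5-fold, 6 in pieces only and 7 after subtraction. A single section gave 388 to 466 higher genes (267 to 296 shared) and 42 to 75 lower (7 to 17 shared). For 30 named genes, 570 alternative ratios were computed. Among the genes past 2-fold, 4 ratios changed sign, all by distance: -0.0039 for SMED30015528, 0.0163 for SMED30023781, 0.0052 for SMED30008318 and 0.0386 for SMED30015925. Ratios of the named genes not past 2-fold also lay on both sides of 0. They ran from -0.1886 to 0.2889 for SMED30019357, -0.1721 to 0.2456 for SMED30019930 and -0.7344 to 0.0256 for SMED30030799. The cause was not tested.

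Between mmp-1+ and mmp-1- cells, 1830 genes were called higher and 285 lower. Total-count scaling gave 894 and 13658 (rim genes 5 and 235), RLE scaling 177 lower (rim genes 2), the compared groups alone 131 lower, and DESeq2 11 rim genes lower. For 6 h against intact, total-count scaling gave 351 higher and 1896 lower in mmp-1+ cells (rim genes 19 and 39) and 863 higher in mmp-1- cells (rim genes 29). The compared groups alone gave 682 and 964 in mmp-1- cells (rim genes 27 and 15). Leaving out 1 library gave 1264 to 1780 higher and 81 to 244 lower in the sort (rim genes 7 to 10 and 1 to 6). It gave 469 to 743 and 875 to 1063 for time in mmp-1+ cells (rim genes 21 to 28 and 14 to 17), and 945 to 1565 and 1119 to 1402 in mmp-1- cells (rim genes 23 to 56 and 16 to 32). With the replicate number as a block the sort gave 1797 higher and 266 lower, time in mmp-1+ cells 790 and 1235, and time in mmp-1- cells 1410 and 1525. Same-numbered libraries had correlations of 0.198, 0.281 and 0.046 in the sort and between -0.190 and -0.021 over time. Differently numbered libraries lay between -0.241 and 0.063 in the sort. The labels do not say whether same-numbered libraries share worms, so a pairing in the sort was neither used in the main fit nor excluded. With the replicate block in the edgeR fit, SMED30027385, SMED30029767 and SMED30011012 were not called, at adjusted p of 0.0644, 0.0649 and 0.0732. Shallow rim beads and 2 sections of 1 block limit what can be told of scarce genes.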
